A study of Homo sapiens with 6 samples.

Results

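The genes described here encode the surface complex of HLA class I, which carries peptides made inside the cell to passing T cells and natural killer cells. They are the heavy chains HLA-B, HLA-C, HLA-E, HLA-F and HLA-G and the shared light chain beta-2-microglobulin, encoded by B2M. These are 6 of the 18665 genes that the annotation names. They were chosen by name, with earlier results of these data known. Every probe that the platform's annotation gives to them was taken, which makes 9 of the 48803 probes on the array. The cells were LNCaP, a prostate cancer line that responds to androgen and was derived from a lymph node metastasis, and RNA was taken 72 h after transfection. One group of 3 samples received 100 nM siRNA against TCTP, the product of TPT1, and the other group of 3 received 100 nM of a control siRNA to luciferase (Luc), which is not a human gene. Each group rests on a single siRNA sequence in 1 cell line, all samples were transfected with Oligofectamine, and untransfected cells are not among the arrays, so that a lower signal with TCTP siRNA cannot be told apart from a raised one with Luc siRNA.

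Illumina HumanWG-6 v3 arrays were used, 1 per sample. The deposited intensities had medians of 35.6 to 39.8 on the arrays of TCTP siRNA and 38.0 to 43.4 on those of Luc siRNA, and 12828 to 13741 probes were detected with TCTP siRNA, against 12897 to 13601 with Luc siRNA, at a detection p under 0.01. All values below are log2 intensities after quantile normalization, where 1 unit is a change of 2-fold. The targeted gene TPT1 had 12.25, 12.47 and 12.39 on the probe ILMN_1789614 with TCTP siRNA and 12.95, 13.17 and 13.23 with Luc siRNA (log2 change -0.75, adjusted p = 0.0033 from limma). Directions here follow the labels of the arrays. They are opposite to the direction that the study states for interferon-induced genes. The study also reports an increase of such genes by qPCR, which included IFIT1, IFI44L, IFIT3, OAS2 and MX1. Why the directions differ was not tested. The brighter TPT1 probe ILMN_2094718 had a log2 change of -0.19 with overlapping groups (adjusted p = 0.471 from limma). Its signals of 13.83 to 14.22 lay close to the highest signal of the arrays, 14.31, and whether this limited its change was not tested. All 8 luminal prostate markers with a probe were detected, while 0 of 11 leukocyte, 0 of 7 fibroblast and 0 of 3 basal cell markers were detected on any array. Of 6 endothelial markers 1 was detected, VWF, with a log2 change of -0.30 (adjusted p = 0.166 from limma over genes). The 20 leukocyte probes together gave deposited intensities of 645 to 726 with TCTP siRNA and 701 to 775 with Luc siRNA. In a measurement on bulk RNA, fewer cells that express a gene and less RNA per cell cannot be told apart.

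A class I molecule forms in the endoplasmic reticulum from a heavy chain, B2M and a short peptide, and without B2M most heavy chains do not reach the surface. HLA-B and HLA-C are classical chains that present peptides to cytotoxic T cells, HLA-E is read mainly by the NKG2A receptor of natural killer cells, and HLA-F and HLA-G are nonclassical chains, HLA-G being best known from the placenta. Interferons raise class I transcription through factors that bind GAAA repeats close to the gene's start, and the coactivator NLRC5 acts at a second block of promoter elements. Prostate cancer cells, LNCaP among them, are known for low class I expression.

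The promoters are shown because interferons are known to act on these genes through them. Below are the 200 bases before the start of transcription of 4 genes from RefSeq (GRCh38.p14), and of IFIT1, an interferon-stimulated gene, for comparison. Capitals mark matches on either strand to AAANNGAAA, a repeat of the kind found in the interferon-stimulated response element, or to AAGTGAAAC, the form present in HLA-B and HLA-C.
B2M, chr15:44711317-44711516, plus strand: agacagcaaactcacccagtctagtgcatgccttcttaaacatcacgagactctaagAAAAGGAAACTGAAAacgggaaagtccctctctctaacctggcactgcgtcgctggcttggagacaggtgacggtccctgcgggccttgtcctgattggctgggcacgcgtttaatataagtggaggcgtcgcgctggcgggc
HLA-B, chr6:31357180-31357379, minus strand: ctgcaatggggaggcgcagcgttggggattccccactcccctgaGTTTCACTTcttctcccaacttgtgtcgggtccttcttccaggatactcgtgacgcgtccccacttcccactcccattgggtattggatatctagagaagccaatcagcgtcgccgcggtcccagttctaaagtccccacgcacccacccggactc
HLA-C, chr6:31272093-31272292, minus strand: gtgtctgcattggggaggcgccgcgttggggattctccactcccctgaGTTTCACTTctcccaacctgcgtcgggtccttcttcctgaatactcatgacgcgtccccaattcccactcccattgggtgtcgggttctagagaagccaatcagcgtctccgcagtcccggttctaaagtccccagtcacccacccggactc
HLA-F, chr6:29723234-29723433, plus strand: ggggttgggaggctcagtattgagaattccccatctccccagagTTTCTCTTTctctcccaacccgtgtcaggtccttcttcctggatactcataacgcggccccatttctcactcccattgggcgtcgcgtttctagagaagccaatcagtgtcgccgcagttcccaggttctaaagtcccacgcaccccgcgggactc
IFIT1, chr10:89392423-89392622, plus strand: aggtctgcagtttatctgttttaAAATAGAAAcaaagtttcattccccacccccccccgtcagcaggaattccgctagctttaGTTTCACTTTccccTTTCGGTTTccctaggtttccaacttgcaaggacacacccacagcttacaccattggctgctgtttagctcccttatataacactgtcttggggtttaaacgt

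B2M held 2 overlapping matches to AAANNGAAA, with first bases at -143 and -137 from the start, and HLA-F held 1 at -156, while IFIT1 held 3. HLA-B and HLA-C held no match to this repeat. AAGTGAAAC, at -156 in HLA-B and -152 in HLA-C, was picked as the form these genes have, so that its presence there is no result. IFIT1 also held 1 match to AAGTGAAAC, which overlaps one of its matches to AAANNGAAA. Of the 35116 promoter windows in the table, 9.2% held AAANNGAAA and 0.268% held AAGTGAAAC within 250 bases before the start, on either strand. The bases TGACGC, part of the block used by NLRC5 and its partners, were present in HLA-B and HLA-C (7.67% of all windows held them). The 3 windows of HLA-G held neither interferon motif. A match is a description of the sequence and does not show that a factor was bound.

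No probe of HLA-B, HLA-C, HLA-E, HLA-F, HLA-G or B2M passed the test between TCTP siRNA and Luc siRNA. B2M and HLA-B had the lower values with TCTP siRNA, with log2 changes of -0.47 and -0.24 on the B2M probes and -0.35 on HLA-B. HLA-C, HLA-E and HLA-F lay within 0.1 log2 units of the control cells, and differences between the genes were not tested. Of the 9 probes, 6 were detected on all 6 arrays and were tested, and these cover 5 of the 6 genes. At a Benjamini-Hochberg adjusted p under 0.05 from limma over all 13484 detected probes, 0 of the 6 were lower and 0 were higher, against 1.13% and 0.794% of all tested probes (1.93% in either direction). At an unadjusted p under 0.05, 2 of the 6 were lower, compared with 7.37% of all probes, and 0 were higher, compared with 7.16%. Of the 6 probes 5 had a negative log2 change, compared with 48.9% of all tested probes. The groups did not overlap for 1 of the 6, which was lower, and for 0 that were higher, against 9.97% and 9.79% of all tested probes. The median log2 change of the 6 probes was -0.16, that of all tested probes 0.0039.

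**Figure D1:**
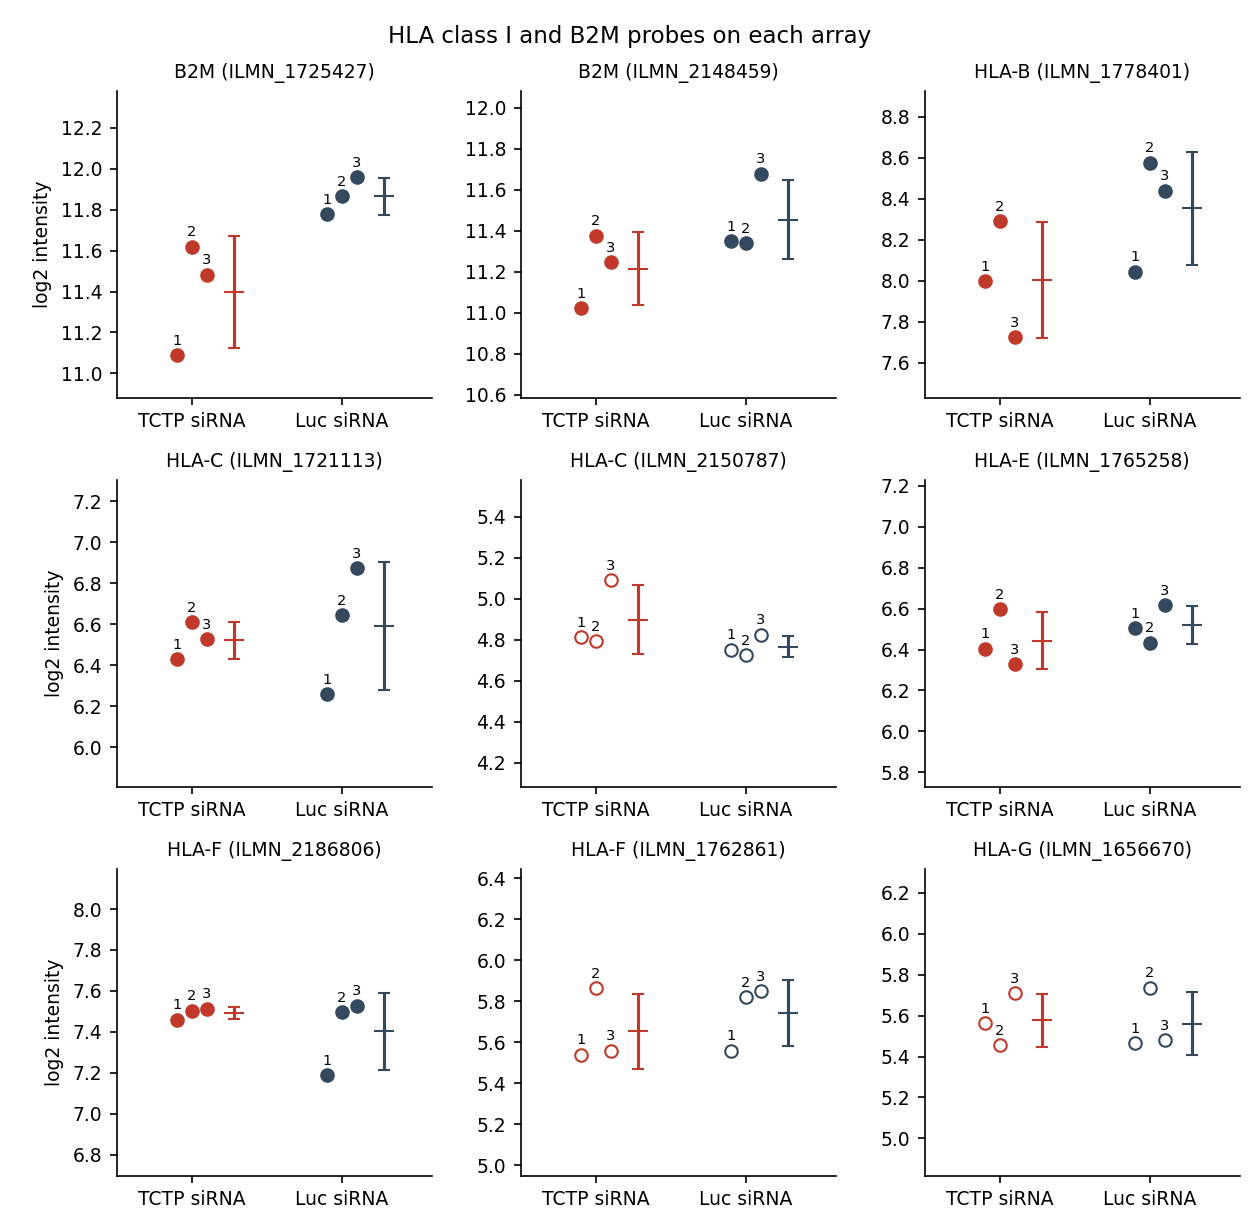
Log2 intensity of each of the 9 probes on each array (vertical axis; each panel spans 1.5 log2 units around its own mean), with TCTP siRNA on the left and Luc siRNA on the right of each panel. Points are arrays with their replicate number, bars are the mean and SD (n = 3), and open points mark probes that were detected on no array. The groups are separated only on the B2M probe ILMN_1725427.

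B2M encodes the light chain that all of these heavy chains share, and it was read by a pair of probes. On ILMN_1725427 the arrays gave 11.09, 11.62 and 11.48 with TCTP siRNA and 11.78, 11.86 and 11.96 with Luc siRNA. Every array of TCTP siRNA lay below every array of Luc siRNA on this probe. The means were 11.40 ± 0.28 (SD, n = 3) with TCTP siRNA and 11.87 ± 0.09 (SD, n = 3) with Luc siRNA. The log2 change was -0.47 (SE 0.13, adjusted p = 0.0935 from limma), which is 72.2% of the control signal with a 95% interval of 59.3% to 87.9%. Before normalization the same probe had deposited intensities of 2114, 2852 and 3135 with TCTP siRNA and 3723, 3734 and 3754 with Luc siRNA, and the groups did not overlap in the deposited values either.

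The other B2M probe, ILMN_2148459, gave 11.02, 11.38 and 11.25 with TCTP siRNA and 11.35, 11.34 and 11.68 with Luc siRNA. TCTP siRNA replicate 2 lay above Luc siRNA replicates 1 and 2 here, and the groups overlapped. The log2 change was -0.24 (SE 0.13, adjusted p = 0.417 from limma), or 84.7% of the control signal with a 95% interval of 70.1% to 102%. The changes of the B2M probes differed by -0.23 log2 units (ILMN_1725427 minus ILMN_2148459) between the groups, with a difference between probes of 0.18 ± 0.10 (SD, n = 3) with TCTP siRNA and 0.41 ± 0.12 (SD, n = 3) with Luc siRNA. A two-sided exact permutation test of this difference gave p = 0.1, the smallest that 3 arrays against 3 allow. When B2M was summarised by averaging its probes, the log2 change was -0.35 (adjusted p = 0.164 from limma over genes).

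The result on ILMN_1725427 depended on single arrays. Without TCTP siRNA replicate 2 its log2 change was -0.58 and passed the threshold (adjusted p = 0.0383 from limma), and without TCTP siRNA replicate 1, the array with the lowest B2M signal, it was -0.31 (adjusted p = 0.342). Its adjusted p lay between 0.0383 and 0.348 over 16 alternatives, and the log2 change was negative in each of them.

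HLA-B, a classical heavy chain, was read by the probe ILMN_1778401. It gave 7.997, 8.29 and 7.73 with TCTP siRNA and 8.04, 8.58 and 8.44 with Luc siRNA. TCTP siRNA replicate 3 was the lowest of the arrays, and TCTP siRNA replicate 2 lay above Luc siRNA replicate 1, so that the groups overlapped. The means were 8.005 ± 0.28 (SD, n = 3) with TCTP siRNA and 8.35 ± 0.28 (SD, n = 3) with Luc siRNA, a log2 change of -0.35 (SE 0.16, adjusted p = 0.325 from limma). This is 78.5% of the control signal, with a 95% interval of 62.2% to 99.1%. With one array left out, the log2 change ranged from -0.50 (without Luc siRNA replicate 1) to -0.21 (without TCTP siRNA replicate 3), and the adjusted p was at least 0.115 in each of the alternatives.

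HLA-C, the other classical chain measured here, had one detected probe, ILMN_1721113, with 6.43, 6.61 and 6.53 with TCTP siRNA and 6.26, 6.64 and 6.87 with Luc siRNA. The arrays of Luc siRNA spread over a wider range than those of TCTP siRNA and enclosed them. The log2 change was -0.070 (SE 0.14, 95% interval -0.37 to 0.23, adjusted p = 0.863 from limma), and its sign turned without Luc siRNA replicate 3, where it was 0.071. The second probe of HLA-C, ILMN_2150787, was detected on 0 of the 6 arrays, with detection p-values of 0.447 to 0.953 with TCTP siRNA and 0.949 to 0.991 with Luc siRNA. The HLA-C probes therefore did not report the same signal, and only ILMN_1721113 stood above background.

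HLA-E, whose product carries leader peptides of other class I chains, gave 6.40, 6.60 and 6.33 on ILMN_1765258 with TCTP siRNA and 6.50, 6.43 and 6.62 with Luc siRNA. The groups overlapped over most of their range. The log2 change was -0.076 (SE 0.11, adjusted p = 0.805 from limma), or 94.9% of the control signal with a 95% interval of 80.6% to 112%. HLA-C and HLA-E lay close to the lowest detected signals of the arrays, which were 5.91 to 6.09 with TCTP siRNA and 5.93 to 6.07 with Luc siRNA. As no background was subtracted, changes of such dim probes are compressed. With the background correction of neqc the log2 changes were -0.081 for HLA-C and -0.097 for HLA-E (adjusted p of 0.872 and 0.784 from limma). This correction adds an offset of 16, and how far compression remains with it was not tested.

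HLA-F, a nonclassical chain, was the only gene of the 5 with a positive log2 change. Its detected probe ILMN_2186806 gave 7.46, 7.50 and 7.51 with TCTP siRNA and 7.19, 7.50 and 7.53 with Luc siRNA. The arrays were nearly equal except Luc siRNA replicate 1, which was lower. The means were 7.49 ± 0.03 (SD, n = 3) with TCTP siRNA and 7.40 ± 0.19 (SD, n = 3) with Luc siRNA, a log2 change of 0.088 (SE 0.11, 95% interval -0.16 to 0.33, adjusted p = 0.782 from limma). Without Luc siRNA replicate 1 it was -0.021.

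The second HLA-F probe, ILMN_1762861, and the single probe of HLA-G, ILMN_1656670, were detected on 0 of the 6 arrays. Both came close to the threshold. The detection p of ILMN_1762861 was 0.0119 to 0.0343 with TCTP siRNA and 0.0145 to 0.0422 with Luc siRNA, and that of HLA-G was 0.0224 to 0.0527 with TCTP siRNA and 0.0171 to 0.0659 with Luc siRNA. When a detection p under 0.05 on 3 arrays sufficed, both were tested and neither passed, with a log2 change of -0.088 for HLA-F (adjusted p = 0.816 from limma) and 0.015 for HLA-G (adjusted p = 0.977). Without any filter the second HLA-C probe had a log2 change of 0.13 (adjusted p = 0.818). The class I genes are close in sequence, and without probe sequences in the sources used here it was not tested how far each probe also reads its relatives.

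Single arrays were low or high on most of the probes at once. TCTP siRNA replicate 1 lay below the mean of its group on all 6 detected probes and TCTP siRNA replicate 2 on 0 of the 6. Among the controls, Luc siRNA replicate 1 lay below its group mean on all 6 probes and Luc siRNA replicate 3 on 0 of the 6. The deviations reached -0.31 for B2M on TCTP siRNA replicate 1 and -0.33 for HLA-C on Luc siRNA replicate 1, which is as large as most of the differences between the groups. The part of these shared deviations in the results was not tested beyond leaving out each array.

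**Figure D2:**
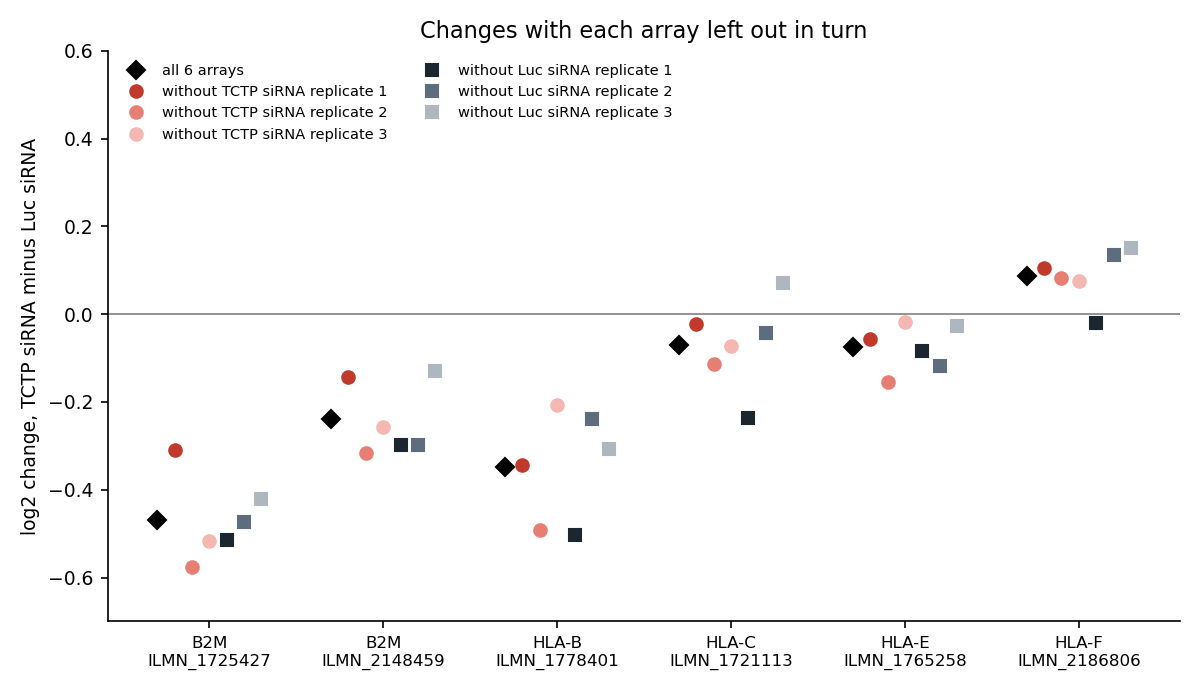
Log2 change of the 6 detected probes (vertical axis, TCTP siRNA minus Luc siRNA) with all 6 arrays (diamonds) and with each array left out in turn (circles, TCTP siRNA arrays; squares, Luc siRNA arrays). The values of B2M and HLA-B stay below 0, while those of HLA-C reach 0.071 and those of HLA-F -0.021.

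The genes that supply and load peptides for class I molecules likewise gave no call. Of 15 such genes 11 were tested as genes, by their brightest detected probe, and 0 were lower and 0 higher, against 1.52% and 1.04% of the 8968 genes tested. At an unadjusted p under 0.05, 3 of the 11 were lower and 0 higher, against 8.05% and 7.59% of all genes. The median log2 change of the 11 was -0.14, that of all genes 0.0011. TAP2, a subunit of the peptide transporter, had 6.36 ± 0.19 (SD, n = 3) with TCTP siRNA and 6.74 ± 0.07 (SD, n = 3) with Luc siRNA, with no overlap and a log2 change of -0.38 (adjusted p = 0.105 from limma). Without TCTP siRNA replicate 3 this was -0.47 and passed (adjusted p = 0.0413). The TAP2 signal with TCTP siRNA lay close to the lowest detected signals of those arrays, which were 5.91 to 6.09. PSME1, a subunit of the proteasome activator PA28, had a log2 change of -0.27 (adjusted p = 0.226). The transporter's other subunit, TAP1, had a log2 change of 0.051 and the chaperone calreticulin, CALR, one of -0.0067. PSMB8 and PSMB9, the immunoproteasome subunits encoded beside the TAP genes, were detected on 0 of the 6 arrays, although PSMB9 had a log2 change of -0.45 (adjusted p = 0.0357) when all probes were tested without a filter. The interferon-inducible coactivator NLRC5 was likewise detected on no array.

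**Figure D3:**
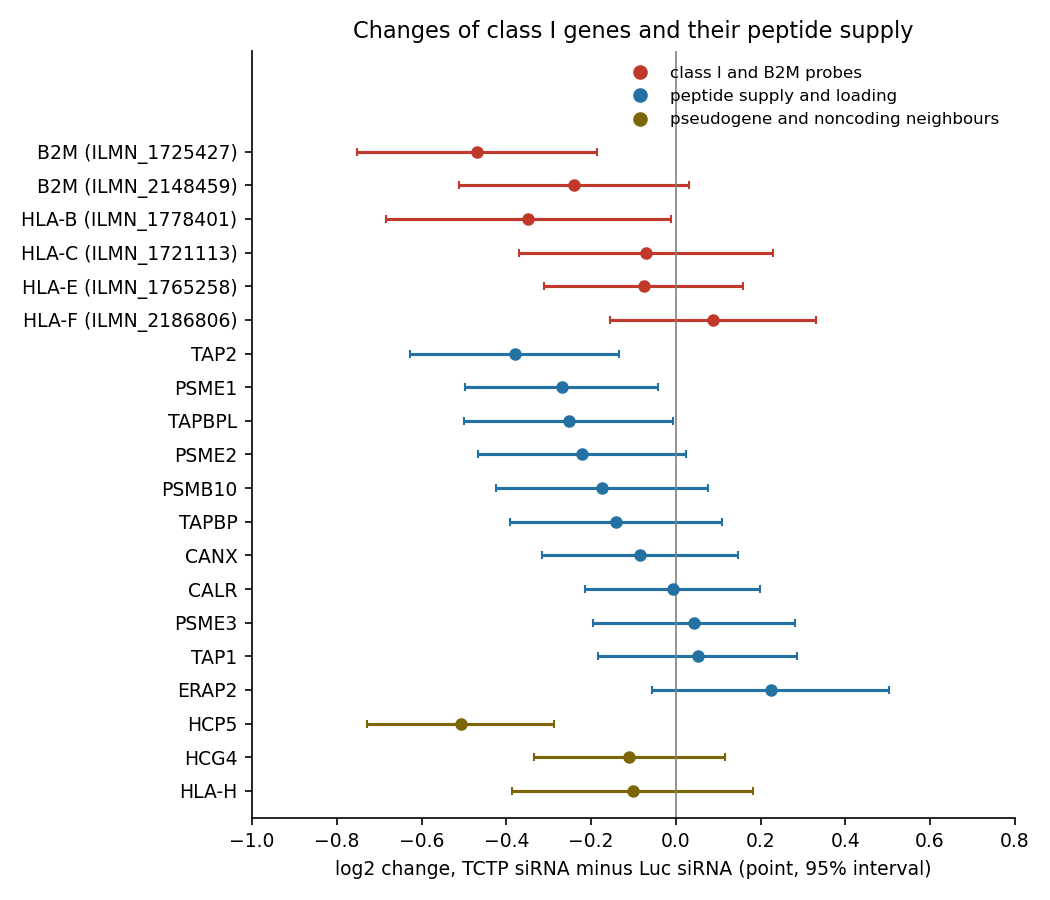
Log2 change (horizontal axis, TCTP siRNA minus Luc siRNA) with its 95% interval from limma for the 6 detected class I and B2M probes, the 11 tested genes of peptide supply and loading, and 3 pseudogene and noncoding neighbours. The intervals of TAP2, PSME1, HCP5, HLA-B and the B2M probe ILMN_1725427 are among those below 0, and of the genes shown HCP5 alone had an adjusted p under 0.05.

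Of 12 tested regulators of class I transcription 1 was lower, IRF9, the DNA-binding subunit of the interferon-activated factor ISGF3. It had 7.23 ± 0.17 (SD, n = 3) with TCTP siRNA and 8.78 ± 0.13 (SD, n = 3) with Luc siRNA, a log2 change of -1.55 (SE 0.12, adjusted p = 3.1e-06 from limma). NFYC, a subunit of the CCAAT-binding factor NF-Y, had a log2 change of -0.44 (adjusted p = 0.0773 from limma), which passed without TCTP siRNA replicate 2 (-0.54, adjusted p = 0.0306). The remaining 10 had log2 changes between -0.12 and 0.11. The median of the 12 was 0.015.

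Among the neighbours of the class I genes, HCP5, a noncoding RNA gene that lies between MICA and MICB, gave 6.69, 6.71 and 6.54 with TCTP siRNA and 7.08, 7.13 and 7.26 with Luc siRNA. It was lower on every array of TCTP siRNA, with a log2 change of -0.51 (SE 0.10, adjusted p = 0.0189 from limma). The HCP5 signal with TCTP siRNA was not far above the lowest detected signals of those arrays, which were 5.91 to 6.09. The adjusted p missed the threshold with median scaling (0.105) and without TCTP siRNA replicate 1 (0.074) or Luc siRNA replicate 1, 2 or 3 (0.0534, 0.0873 and 0.118), while the log2 change was -0.49 with median scaling and -0.55 to -0.45 with one array left out. HLA-H, a pseudogene close in sequence to the classical chains, was read by a pair of detected probes with log2 changes of -0.10 on ILMN_2130441 and -0.016 on ILMN_1666078 (adjusted p of 0.782 and 0.968), the first of which was 0.016 without TCTP siRNA replicate 3. HCG4, the other noncoding gene of this list with a probe, had a log2 change of -0.11 and did not pass.

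Genes that interferon is best known to induce were lower with TCTP siRNA by the labels of the arrays. The study states the opposite direction, from its arrays and from qPCR. A list of 35 such genes was used, of which 34 had a probe. Without any detection filter, which all 34 then entered, 26 were lower and 0 higher, against 0.948% of 18665 genes that were lower, and the median log2 change was -0.90. With the filter 25 were tested, and 9 of these had no detected signal with TCTP siRNA, having entered through the Luc siRNA arrays alone, so that their direction was fixed by the filter. The 14 that were detected on all 6 arrays had log2 changes of -2.86 to -0.41, each with an adjusted p under 0.05. In that fit 1.52% of 8968 genes were lower. When only probes detected on all 6 arrays were tested, 12 of the 14 passed as lower. Without a Luc siRNA array the 9 were no longer tested, and of the 16 that were, 12 (without replicate 1), 11 (without replicate 2) and 12 (without replicate 3) were lower. The list was drawn up with earlier results of these arrays known, and leaves out ISG20 and LY6E, whose log2 changes were 0.13 and 0.044 (adjusted p of 0.584 and 0.89 from limma). IFIT1, which binds viral RNA and whose promoter is shown above, gave 6.15, 5.74 and 5.96 with TCTP siRNA and 9.51, 9.77 and 9.59 with Luc siRNA. Its log2 change was -3.68 (adjusted p = 1.6e-09 from limma). IFIT2, of the same family, had a log2 change of -2.86. IFI27 and OAS2, not detected with TCTP siRNA, were at least 6.21-fold and at least 2.83-fold lower, the bounds being set at the lowest detected signal of each array. B2M and HLA-F, whose promoters hold the same repeat as that of IFIT1, had no probe that passed the test with all 6 arrays. The log2 changes were -0.47 and -0.24 on the B2M probes. On the detected HLA-F probe the log2 change was 0.088, with a sign that turned without Luc siRNA replicate 1. Whether the repeat bears on these changes was not tested. PARP9, the gene with -0.41 above, had a smaller log2 change than the B2M probe ILMN_1725427, and whether class I and interferon-stimulated genes differ was not tested.

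**Figure D4:**
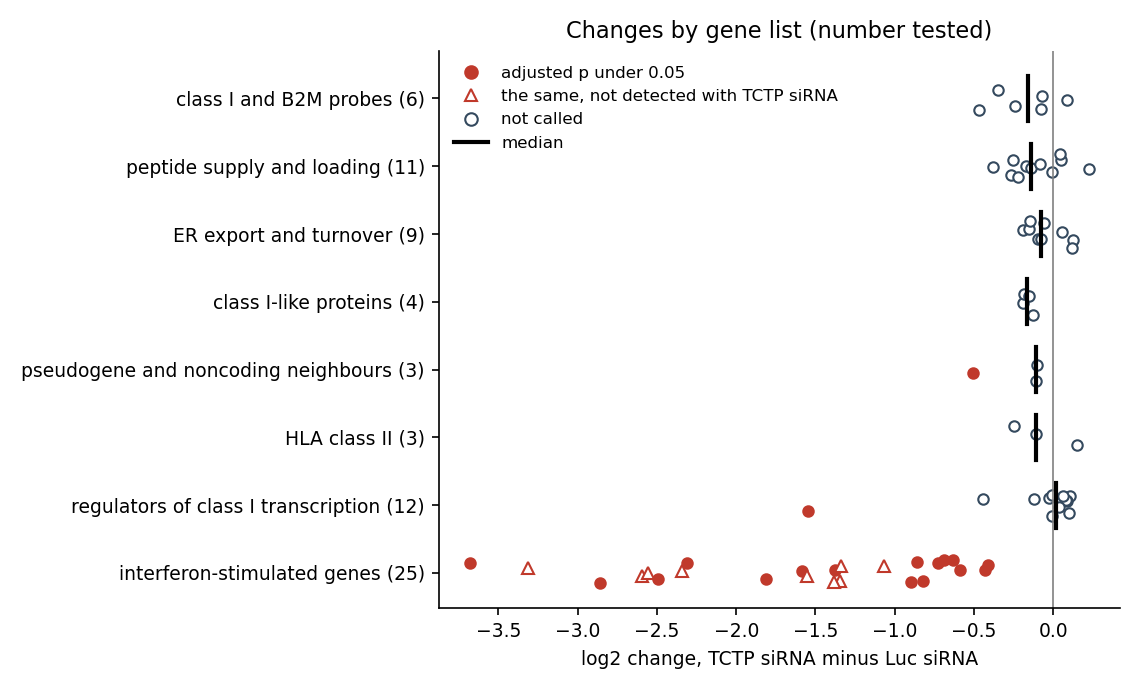
Log2 change (horizontal axis, TCTP siRNA minus Luc siRNA) of the 6 class I and B2M probes and of the tested genes of 7 lists, with the number tested in brackets, red for an adjusted p under 0.05 from limma, open triangles for the 9 genes detected on no array of TCTP siRNA and a black bar for the median, left out for the list that holds these 9. The class I and B2M probes have a median of -0.16 and no red point, and the interferon-stimulated genes detected on all arrays lie between -2.86 and -0.41.

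The patterns most like those of the class I genes over the 6 arrays, by Pearson's r among the tested genes, were as follows and are given as a description. For B2M they were UROS (r = 0.99), DENND2C (0.99) and UBXN8 (0.98), for HLA-B they were BRIX1 (0.99), NMRAL1 (0.99) and ZNF593 (0.98), and for HLA-C they were MTERF1 (0.99), ACYP1 (0.97) and IFNAR2 (0.97). For HLA-E they were TMEM42 (1.00), ZFAND6 (1.00) and JOSD2 (0.99), and for HLA-F they were ZNF652 (0.99), SHARPIN (0.99) and EEF1AKMT2 (0.98). None of these 15 genes was called. With so few arrays such values are common, since between 30 and 144 of the genes had an r above 0.9 with each class I gene.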

How the data were processed

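The authors read the scans with BeadStudio (version not stated) and deposited linear intensities per probe, neither normalized nor background-subtracted, with a detection p-value for each. They deposited no log2 values. They also deposited quantile-normalized intensities, made in J-Express per the methods. Quantile normalization was repeated here with limma 3.58.1 (R 4.3.3) before taking log2, and the largest difference to the deposited normalized values was 0.029 log2 units. Each intensity column was paired with its detection column by position, checked by rank correlation. The platform's annotation gave the gene symbols, updated by gene identifier (27578 probes with 1 symbol, 13 with several, 21212 with none listed). HLA-E has no promoter printed.

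The 13484 probes detected (p under 0.01) on 3 or more arrays were compared with lmFit and eBayes and adjusted by Benjamini-Hochberg over all of them. Lists were tested over 8968 genes, each by its brightest detected probe, with no set test. The methods name SAM and feature subset selection without settings, and limma was used instead. The series describes the samples as biological replicates. Whether they came from separate transfections is not stated, so that p-values measure the spread between these samples. The number of arrays limits the precision.

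The genes, probes and lists were chosen with earlier results of these data known. Named genes are all probes of the 6 genes, TPT1, up to 4 called genes with the largest fitted change per list (or the 2 with the smallest p where none was called) and the 3 genes with the most similar pattern per class I gene. TAP1, CALR, PSMB8, PSMB9, NLRC5, NFYC, HLA-H, HCG4, PARP9, ISG20 and LY6E were added once their values had been seen. Alternatives tried were other normalizations, background corrections (normexp with an offset of 50, neqc with 16), detection filters, gene summaries, robust eBayes with a trend, blocking on replicate number, a stricter threshold and each array left out. The test was checked on simulated data. That check set a recovery limit only for changes larger than those of the class I and B2M probes. Plots used matplotlib 3.10.9 (Python 3.11.15).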

Additional observations from a re-analysis of the deposited data

How the results depend on the processing

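Over 16 alternatives each, HLA-B, HLA-E and the B2M probe ILMN_2148459 kept a negative log2 change that did not pass the test. With one array left out in turn, the ranges were -0.58 to -0.31 for the B2M probe ILMN_1725427, called without TCTP siRNA replicate 2 (0 to 1 class I or B2M probes lower), -0.24 to 0.071 for HLA-C and -0.021 to 0.15 for HLA-F, whose signs turned without Luc siRNA replicate 3 and Luc siRNA replicate 1. The HLA-H probes had ranges of -0.083 to 0.057 on ILMN_1666078 and -0.22 to 0.016 on ILMN_2130441, positive without TCTP siRNA replicate 3 (0.037 and 0.016) and, on ILMN_1666078, without Luc siRNA replicate 3. The same fits gave 35 to 180 lower and 25 to 147 higher probes of all tested, where the fit with every array gave 153 and 107, and 11 to 24 lower interferon-stimulated genes, 1 to 2 lower regulators, 0 to 1 lower genes of peptide loading and 0 to 1 (HCP5) among the noncoding neighbours. Median scaling gave 45 lower and 21 higher probes, and a threshold of 0.01 gave 59 and 32. HCP5 was called under neither, so that 0 of its list were lower. Without a detection filter 162 probes were higher and 1 gene of peptide loading, PSMB9, was lower. Detection on all 6 arrays left 14 interferon-stimulated genes to test, 12 of them lower. Without a Luc siRNA array 16 were tested in place of 25, since the 9 detected on Luc siRNA arrays alone no longer passed the filter. Apart from these changes in what was tested, the cause was not tested.

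The labels link samples of the groups only by a replicate number. The deviations of same-numbered samples from their group means correlated at -0.08, -0.04 and -0.37. Those of differently numbered samples correlated at -0.36 to 0.48. With 3 arrays per group these values cannot show whether samples of the groups were paired. With the replicate number as a block 85 probes were lower and 54 higher, 0 of the noncoding neighbours were called (HCP5, adjusted p = 0.0652 from limma), and no class I or B2M probe was called.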

Other observations

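Genes that resemble class I in structure or share its path through the cell gave no calls. Of 18 class I-like genes 17 had a probe and 4 were tested. All 4 had negative log2 changes that did not pass, led by MR1, which presents vitamin metabolites to T cells, at -0.19 (adjusted p = 0.355 from limma), and AZGP1, a secreted protein of class I fold made by the prostate, at -0.18 (adjusted p = 0.481). Of the 9 tested genes of endoplasmic reticulum export and surface turnover, 0 were lower and 0 higher at an adjusted p under 0.05 and also at an unadjusted p under 0.05, with log2 changes from -0.19 for UGGT1, which checks the folding of glycoproteins, to 0.12, and -0.16 for ERP29.

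Of 16 HLA class II genes with a probe 3 were tested and none passed. HLA-DMB, a peptide editor of the class II pathway, gave 8.48, 8.85 and 8.56 with TCTP siRNA and 8.87, 8.79 and 8.97 with Luc siRNA, with overlapping groups (adjusted p = 0.332 from limma). HLA-DRB4 was detected on 2 arrays of TCTP siRNA and 1 of Luc siRNA (log2 change 0.15, adjusted p = 0.581). HLA-DRA, the class II invariant chain gene CD74 and the class II activator CIITA were detected on 0 of the 6 arrays.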
